A study of Homo sapiens with 48 samples.

Results

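CNOT1 is the scaffold of CCR4-NOT, the complex whose deadenylases trim mRNA poly(A) tails, the step with which decay of most mRNAs begins. The comparison described here was CNOT1-AID against parental DLD-1 cells after 2 h of auxin, 4 libraries (2 per line) of 48 in the series. DLD-1 is a human colorectal cancer line. All cells used expressed TIR1, a plant F-box protein. In the presence of auxin TIR1 marks any protein fused to the AID degron for destruction by the proteasome. The parental line is untagged, the CNOT1-AID line has the degron at the CNOT1 gene, and the CNOT4-AID line has it at CNOT4, which encodes a ubiquitin ligase that binds the complex. Every library of the 2 h set, parental included, was from cells given 1 mM auxin for 2 h and no triptolide (a blocker of transcription used at later times). The members were chosen by these labels alone. Whether a tagged line is 1 clone or a pool is not given in the sources used here.

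Because the 2 h set holds no cells without auxin, a line difference in it mixes what distinguished the lines beforehand with what 2 h without CNOT1 brought. The same difference was therefore also taken in 8 untreated libraries (CNOT1-AID and parental, 2 each at 8 h and 24 h of culture), which share no library with the 2 h set. Those are from a second table with its own normalization, so the differences stand side by side and the difference between them was not tested. CNOT4-AID libraries at 2 h (n = 2) served as a second control, and CNOT1-AID cells with auxin for 8 h show the later course. The loss of mRNAs was taken from CNOT4-AID cells given triptolide for 3 h, also with auxin. Immediate early genes are switched on within minutes of a growth factor or stress signal, and their mRNAs are known for very short lives. Many zinc finger genes lie in clusters on chromosome 19 and encode DNA-binding repressors of transposable elements.

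The 6 libraries of the 2 h set held 18216427 to 21375384 counts. The pair of parental libraries stood apart. Their log2 levels differed with an SD of 0.5758 across 10871 genes, against 0.1344 for the CNOT1-AID pair and 0.327 for the CNOT4-AID pair, and the parental difference followed the GC content of the transcripts (r = 0.818 across genes, which are not independent replicates). Colon epithelium markers were present (12 of 15 at 1 CPM or more, with KRT8 at 3400 CPM, counts per library scaled to a common total), with a summed level of 7005 and 9074 CPM in parental and 7353 and 7492 CPM in CNOT1-AID libraries. None of 8 fibroblast markers and 1 of 7 blood markers reached 1 CPM, and 5 of each were at 0. Neural TUBB3 stood at 138.7 CPM, and endothelial VWF at 3.779 CPM.

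After 2 h of auxin, 213 of 15674 genes differed between CNOT1-AID and parental cells (1.36%, adjusted p under 0.05 in edgeR), and 202 of them differed at least 2-fold. Higher in CNOT1-AID were 110 genes (0.702%), among them the immediate early genes EGR1, FOSB and FOS. Lower were 103 genes (0.657%), of which 64 lay on chromosome 19 and 61 had a zinc finger symbol. The count moved with each library left out. Without parental replicate 1 it was 1674, without parental replicate 2 it was 2750, and with an offset for GC content 2023 (12.9%, 1026 or 6.55% higher and 997 or 6.36% lower). Leaving out replicate 1 or 2 of CNOT1-AID left 48 and 61.

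CNOT1 itself (ENSG00000125107.17, chromosome 16, 58519951 to 58629886, GRCh38) was read at 456.0 and 524.5 CPM in parental libraries, at 248.8 and 231.9 CPM in CNOT1-AID libraries and at 462.9 and 520.4 CPM in CNOT4-AID libraries. CNOT1-AID lay below both other lines with no overlap, with a log2 difference from parental of -1.03 (SE 0.1523, adjusted p 0.02803). On leaving out CNOT1-AID replicate 1 or 2 it was -1.08 and -0.97 and not called (adjusted p 0.298 and 0.415). The tagged line was already lower without auxin (log2 -0.57), where parental libraries held 83.82 to 95.17 TPM (a level corrected for transcript length) and CNOT1-AID libraries 48.97 to 68.37. These are mRNA levels, and the protein that auxin removes was not measured in the files used. None of the other 11 CCR4-NOT genes passed the test at 2 h, in edgeR or DESeq2 (2 of the 12 had an unadjusted p under 0.05 in edgeR). The deadenylase CNOT8 had a log2 difference of 0.52 (adjusted p 0.2829), the deadenylase CNOT6L 0.45 and CNOT4 0.34. With the GC offset CNOT8 and CNOT6L were called higher. Without parental replicate 1, TNKS1BP1 (log2 0.81, adjusted p 0.00869) and CNOT3 (log2 0.84, adjusted p 0.0208) were called, and without parental replicate 2, CNOT8 (adjusted p 0.0124), CNOT6L (0.0355) and CNOT4 (0.0296). CNOT8, CNOT6L and CNOT4 were higher by 8 h of auxin in CNOT1-AID cells, by log2 1.20, 1.44 and 1.65.

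**Figure D1:**
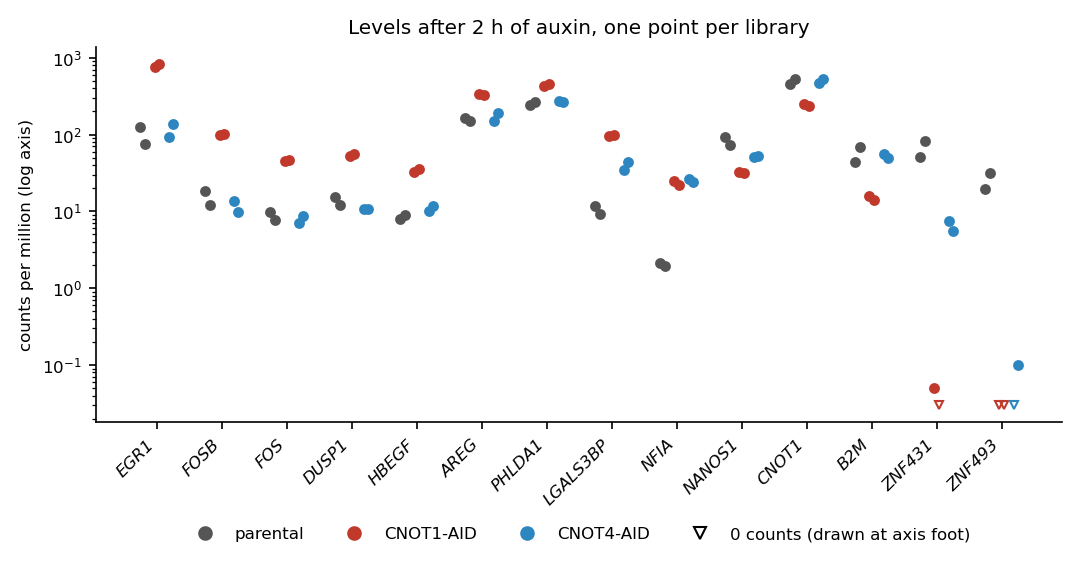
Levels of 14 genes after 2 h of auxin in CPM on a log axis, 1 point per library, 2 libraries for each of 3 lines; open triangles mark 0 counts. EGR1, FOSB, FOS and DUSP1 stand high in the CNOT1-AID line alone of these 3, while NFIA is high and ZNF493 at or near 0 in both tagged lines.

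The genes that were lower after 2 h were mostly lower without auxin too. Untreated CNOT1-AID and parental cells differed in 3095 of 14921 genes (20.7%), and the difference itself changed from 8 h to 24 h of culture for 1 gene (0.0067%). Of the 96 lower genes that could be tested in both tables, 90 (93.75%) were also lower in untreated CNOT1-AID cells, where 10.6% of all genes were called lower. Of 101 higher genes, 45 (44.55%) were also higher untreated, against a background of 10.1%. In all, 135 genes were called in both with the same direction, 5 with opposite directions, and 57 were not called untreated; 16 were not tested there. The 135 became 588 and 546 without parental replicate 1 or 2, and 36 and 42 without CNOT1-AID replicate 1 or 2. Across genes, 2 h and untreated differences correlated with r = 0.7181 for the 96 lower genes and r = 0.2207 for the 101 higher ones, values restricted by the selection on the 2 h call and given as a description.

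A small untreated difference was defined as a 95% interval lying within 1.5-fold in both directions (log2 0.58). The interval is on the scale of TPM plus 0.5, which understates changes of low genes. A gene well below 0.5 TPM can therefore meet the rule even where its TPM differ more than 1.5-fold. BAHCC1 met it at 0.1 to 0.25 TPM in untreated parental and 0.1 to 0.26 TPM in untreated CNOT1-AID libraries. For such genes the rule does not show that the lines were alike. How many called genes were this low was not counted. The rule held for 62 of the called genes, 56 higher and 6 lower, and for 12133 of the 13899 genes tested in both tables. Of the 50 protein-coding ones, 46 were higher. The number also moved with the libraries, to 1199 and 2205 without parental replicate 1 or 2, and to 9 and 14 without CNOT1-AID replicate 1 or 2. Without 1 parental replicate, the spread of the poorly agreeing parental pair drops out of the test. A call kept in that setting is therefore no support for a gene.

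**Figure D2:**
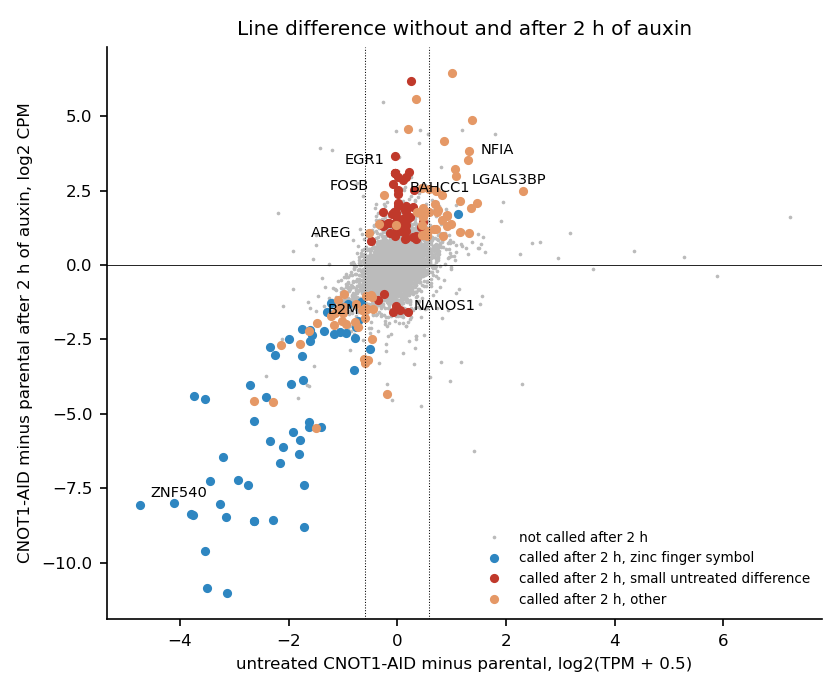
Each gene's CNOT1-AID minus parental difference untreated (horizontal, log2 of TPM plus 0.5) and after 2 h of auxin (vertical, log2 CPM, with genes at 0 counts in 1 group drawn at their bound). Zinc finger genes (blue) run down the lower left, and the 62 genes with a small untreated difference (red) stand mostly above 0 between the dotted lines at 1.5-fold.

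Of the 110 higher genes, 18 were on the list of immediate early genes. Of 49 genes of that list tested, these 18 were higher and 0 lower, with a median log2 difference of 0.97 against -0.01 for all genes, and 47 of 49 were above 0. In untreated cells 10 of the list were higher and 5 lower, with a median of 0.02; ID1, ID2, ID3, CTGF, CYR61 and DUSP6 were higher in both. Both CNOT1-AID libraries lay above all 4 parental and CNOT4-AID libraries for 37 of the 49, which 13.7% of all genes did. The list's calls went from 18 to 38 and 28 of 50 tested without parental replicate 1 or 2, and to 6 of 50 and 7 of 49 without CNOT1-AID replicate 1 or 2. The median stayed between 0.82 and 1.35 over all settings tried, scalings included.

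EGR1 (ENSG00000120738.7, chromosome 5, 138465490 to 138469315) encodes a zinc finger transcription factor of the early growth response. It stood at 126.7 and 75.72 CPM in parental libraries, at 763.8 and 826.7 CPM in CNOT1-AID libraries and at 91.5 and 135.5 CPM in CNOT4-AID libraries. The difference was 7.862-fold (log2 2.97, SE 0.3032, adjusted p 0.008256). Without auxin, parental libraries held 31.75 to 34.99 TPM and CNOT1-AID libraries 29.17 to 36.81, overlapping ranges (log2 0.02). EGR1 was not called after 8 h of auxin (log2 0.12, adjusted p 0.1374).

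FOSB, FOS and JUN encode subunits of the AP-1 transcription factor. FOSB was read at 18.29 and 11.96 CPM in parental and at 98.82 and 100.9 CPM in CNOT1-AID cells (log2 2.73, adjusted p 0.007458). FOS was read at 9.886 and 7.831 CPM in parental and at 45.26 and 46.56 CPM in CNOT1-AID cells (log2 2.38, adjusted p 0.005122). JUN, at 29.66 and 15.48 against 84.23 and 78.91 CPM, was higher by log2 1.86 (adjusted p 0.03783). JUN was not called without CNOT1-AID replicate 1 or 2 (adjusted p 0.166 and 0.14), whereas FOSB and FOS were. The groups did not overlap for any of the 3, which the rule that named them required. Their untreated log2 differences were -0.09, 0.02 and 0.14, and JUN was named from among genes with a small untreated difference. Untreated FOSB was low (0.33 to 0.66 TPM in parental, 0.3 to 0.8 TPM in CNOT1-AID libraries). The scale of TPM plus 0.5 understates changes at such levels. At 2 h the CNOT4-AID libraries lay near the parental ones, at 9.762 and 13.8 CPM for FOSB and 7.144 and 8.806 CPM for FOS. JUNB, which stood at 107.4 and 37.07 CPM in the pair of parental libraries and at 188.9 and 209.7 CPM in CNOT1-AID, missed the threshold (log2 1.47, adjusted p 0.2402). Without parental replicate 1 or 2 it was called (log2 2.43 and 0.89, adjusted p 0.000517 and 0.0189).

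Some inhibitors of signalling were among the higher genes. DUSP1, a phosphatase that inactivates MAP kinases, stood at 15.43 and 12.05 CPM in parental and at 53.11 and 56.32 CPM in CNOT1-AID libraries (log2 2.00, SE 0.1874, adjusted p 0.006108). Of the other members of its family on the list, DUSP10 (log2 1.15) and DUSP6 (log2 0.94, and 0.29 and called untreated) passed. DUSP2 (log2 1.62, adjusted p 0.07468), DUSP5 (log2 0.85, adjusted p 0.07242), DUSP8 (log2 0.72, adjusted p 0.3063) and DUSP4 (log2 0.09, adjusted p 0.9388) did not. NFKBIA, the inhibitor that holds NF-kB in the cytoplasm, stood at 51.2 and 45.41 CPM in parental and at 111.3 and 103.9 CPM in CNOT1-AID cells (log2 1.16, adjusted p 0.01925). It was the single gene called of 20 tested on the NF-kB list, whose median was 0.03. The receptor signalling inhibitors SPRY2 (log2 1.36) and SPRY4 (log2 0.98), the pseudokinase TRIB1 (log2 1.73) and IER3 (log2 1.76) were also called higher; SPRY2 and SPRY4 were picked out after their values were seen. DUSP1 and IER3 were called whichever library was left out. The adjusted p without CNOT1-AID replicate 1 or 2 was 0.252 and 0.192 for NFKBIA, 0.348 and 0.255 for DUSP10, 0.336 and 0.351 for DUSP6, 0.217 and 0.22 for SPRY2, 0.427 and 0.464 for SPRY4 and 0.0529 and 0.0551 for TRIB1. Without parental replicate 1 or 2, DUSP2 (0.000258 and 0.00458) and DUSP5 (0.0169 and 0.0139) were called.

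Among secreted factors, HBEGF, a ligand of the EGF receptor, stood at 7.943 and 9.036 CPM in parental and at 32.49 and 35.74 CPM in CNOT1-AID libraries (log2 2.00, adjusted p 0.005961). GDF15, a stress-induced cytokine, was higher by log2 1.80 (193.5 and 112.5 against 522.4 and 546.3 CPM). KLF2 (log2 1.77), the NOTCH target HES1 (log2 1.41), CSRNP1 (log2 1.41) and EGR3 (log2 1.39) were transcription factors of the list that passed. ATF3 (log2 0.01, adjusted p 0.9915), KLF6 (log2 -0.34, adjusted p 0.4511) and NFKBIZ (log2 -0.26, adjusted p 0.7127) were listed members near or below the parental level. HBEGF was called whichever library was left out. For the rest, leaving out CNOT1-AID replicate 1 or 2 gave an adjusted p of 0.136 and 0.154 for GDF15, 0.159 and 0.161 for KLF2, 0.108 and 0.096 for HES1, 0.108 and 0.129 for CSRNP1 and 0.256 and 0.237 for EGR3, and KLF6 was called lower without parental replicate 1 (log2 -0.49, adjusted p 0.0252).

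**Figure D3:**
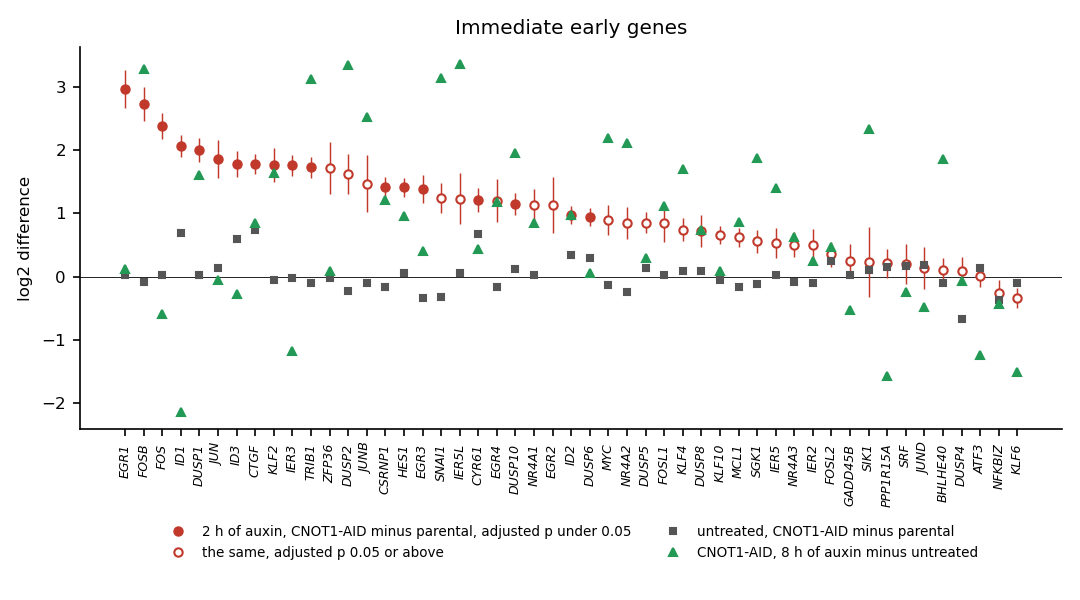
Log2 differences of the 49 tested immediate early genes, ordered by the 2 h line difference (circles with SE, filled where the adjusted p was under 0.05), with the untreated line difference (squares) and the change over 8 h of auxin in CNOT1-AID cells (triangles). Squares lie close to 0 for most genes, circles lie above it for 47 of 49, and triangles spread from -2.14 for ID1 to above 3.

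The 5 genes called in opposite directions were all higher after 2 h and lower untreated. AREG, another EGF receptor ligand, was read at 164.9 and 151.2 CPM in parental and at 334.4 and 330.8 CPM in CNOT1-AID cells at 2 h (log2 1.07, adjusted p 0.03284). Untreated parental libraries held 78.47 to 90.18 TPM and untreated CNOT1-AID libraries 51.37 to 66.74 TPM, lower with no overlap (log2 -0.52). PHLDA1 differed by log2 0.81 at 2 h and -0.49 untreated, and BTG2, an antiproliferative protein that binds the CCR4-NOT deadenylases, by 1.37 and -0.31. RGS16, a regulator of G-protein signalling, differed by 1.31 and -0.26. SIK1B differed by 1.34 and -0.25; it is a near-identical copy of the kinase gene SIK1 (log2 0.23, adjusted p 0.9303), and how reads were split between the copies is uncertain. PHLDA1, BTG2, RGS16 and SIK1B also meet the rule for a small untreated difference. At 2 h none of the 5 was called without CNOT1-AID replicate 1 or 2 (AREG, adjusted p 0.288 and 0.279), and 0 genes were called in opposite directions; without parental replicate 1 or 2 there were 64 and 204.

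Promoter sequence was looked at because these genes were higher together. RefSeq promoter windows (GRCh38.p14, 250 bases before the start) were matched by symbol for 40 of the 55 symbols higher with a small untreated difference. Windows that hold a motif are shown for EGR1 and DUSP1, each 5′ to 3′ on the gene's strand with the motif in capitals. The first pair are CArG boxes, the site of serum response factor, and the last is the full cyclic AMP response element TGACGTCA.
EGR1, chr5:138465365-138465392, plus strand: ccggtcctgCCATATTAGGgcttcctgc
EGR1, chr5:138465387-138465414, plus strand: tcctgcttcCCATATATGGccatgtacg
DUSP1, chr5:172771304-172771329, minus strand: cagggcgggTGACGTCAccgccccgt
On either strand, a CArG box was found in 1 of the 40 windows (2.5%), in 1.14% of 27305 windows of all genes and in 0.936% of 10257 windows of genes tested at 2 h. TGACGTCA was found in 1 of 40 (2.5%, against 1.77% and 2.79%). TGANTCA, a looser form of the AP-1 motif with any base in the middle, was found in 2 of 40 (5%, against 6.6% and 3.98%). These were TGATTCA in ARSJ and TGAATCA in MSANTD4, neither with the middle C or G of the AP-1 consensus. The motifs do not overlap one another in these windows. The shares in the higher genes were thus 1 or 2 windows each, and a match is a description of letters.

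The higher genes with a small untreated difference were then set against CNOT4-AID cells, a look taken after the values were seen. CNOT1-AID and CNOT4-AID cells differed at 2 h in 165 genes (1.05%), 101 higher (0.644%) and 64 lower (0.408%) in CNOT1-AID. Leaving out any 1 of these 4 libraries left 0 called in edgeR (936 to 1280 at an unadjusted p under 0.05), and DESeq2 on all of them called 527. Both CNOT1-AID libraries lay beyond all 4 parental and CNOT4-AID libraries for 49 of the 56. They lay above them for 13.7% of all genes, no measure of chance for genes already called higher than parental. The median log2 difference of the 56 was 1.51 from parental and 1.16 from CNOT4-AID. Since the comparisons share the CNOT1-AID libraries, these values stand side by side. For 28 of the 56, both tagged lines lay above both parental libraries, as they did for 4 of the 18 called immediate early genes. Over all genes the share was 8.14%, which is no measure of chance for genes chosen as higher in CNOT1-AID. In 7 of the 56 CNOT4-AID libraries reached or passed the CNOT1-AID level: BAHCC1, STAT5A, MSANTD4, DUXAP10, L3MBTL1, GAB2 and ARSJ. BAHCC1, for example, stood at 2.572 and 1.251 CPM in parental, 11.92 and 9.97 CPM in CNOT1-AID and 44.77 and 49.06 CPM in CNOT4-AID libraries. STAT5A, a signal transducer of cytokine receptors, stood at 0.2286 and 0.2317 CPM in parental, 1.81 and 1.909 in CNOT1-AID and 2.006 and 1.811 in CNOT4-AID libraries. STAT5A, L3MBTL1, GAB2 and ARSJ were not called against parental without CNOT1-AID replicate 1 or 2 (adjusted p 0.108 and 0.122 for STAT5A), nor was BAHCC1 without replicate 1 (0.0789).

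Higher genes that were also higher in untreated cells were led by NFIA and LGALS3BP. NFIA (ENSG00000162599.15, chromosome 1, 60865259 to 61462793), a transcription factor of the nuclear factor I family, was read at 2.114 and 1.946 CPM in parental, 24.89 and 22.01 CPM in CNOT1-AID and 26.67 and 24.15 CPM in CNOT4-AID libraries (log2 3.53 from parental, adjusted p 0.001896). Untreated, it held 0.56 to 0.88 TPM in parental and 2.16 to 3.04 TPM in CNOT1-AID libraries (log2 1.31 on the scale of TPM plus 0.5, which understates changes of low genes). LGALS3BP, a secreted glycoprotein that binds galectins, was read at 11.6 and 9.314 CPM in parental and at 95.2 and 99.07 CPM in CNOT1-AID libraries, a log2 difference of 3.22. Its untreated difference was log2 1.06 (26.92 to 31.82 against 58.07 to 60.49 TPM), and 8 h of auxin moved it by log2 0.16 (adjusted p 0.1368).

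The gel-forming mucin MUC5AC differed by log2 3.00 at 2 h and 1.09 untreated, and the BMP receptor BMPR1B by 2.08 and 1.47. S100P, a calcium-binding protein, differed by log2 1.91 and 1.35. ID1, an inhibitor of basic helix-loop-helix factors, stood at 30.52 and 24.74 CPM in parental, 116.5 and 114.2 CPM in CNOT1-AID and 16.59 and 18.57 CPM in CNOT4-AID cells (log2 2.06), against an untreated difference of 0.69. CTGF (log2 1.78 and 0.73) and CYR61 (log2 1.21 and 0.68), both matricellular proteins, were higher in both comparisons. Without CNOT1-AID replicate 1, MUC5AC (adjusted p 0.0507), BMPR1B (0.0529), S100P (0.0618), CTGF (0.0514) and CYR61 (0.252) were not called, nor were MUC5AC (0.0551) and CYR61 (0.232) without replicate 2. For 37 of the 45 genes higher in both, CNOT4-AID libraries also lay above both parental libraries. Both tagged lines lay above parental for 8.14% of all genes, which is no measure of chance for genes chosen as higher in CNOT1-AID.

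Zinc finger genes made up most of the lower group. On the list of zinc finger genes 53 of 386 tested were lower and 1 higher, while the list's median was 0.07, and the lower genes are thus a subset of it. Genes with a zinc finger symbol called lower, 61 in all, became 103 and 87 without parental replicate 1 or 2 and 31 and 33 without CNOT1-AID replicate 1 or 2, and 108 with the GC offset, where 55 were called higher. Untreated, 179 of 371 were lower and 10 higher, with a median of -0.22. The 64 lower genes of chromosome 19 fell into 8 blocks split by gaps over 2 Mb. Each block was drawn from its first to its last lower gene, which raises the share of lower genes inside it by construction. Over all genes 0.657% were lower and 0.702% higher. Inside the blocks 0 genes were called higher, from which nothing is read since few calls would be found at that share. The block from 36383120 to 37817300 held 19 lower genes of 31 tested, from ZFP82 to ZNF573. That from 51804816 to 53580269 held 16 of 39, and that from 19710471 to 23833314 held 14 of 22.

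Several of these genes had no reads at all in CNOT1-AID cells. ZNF493 was at 19.66 and 31.56 CPM in parental libraries and at 0 counts in both CNOT1-AID libraries, at least 338.7-fold lower with 3 counts per group taken as the floor. ZNF570 was at 19.77 and 30.26 CPM in parental and at 0 in all CNOT1-AID and CNOT4-AID libraries at 2 h, at least 330.1-fold lower. Untreated CNOT1-AID libraries listed ZNF570 at 0 TPM in all 4, where parental libraries held 6.17 to 6.98 TPM. In all, 22 lower genes were at 0 in CNOT1-AID libraries. Of the 61 lower genes with a zinc finger symbol, all 61 were below both parental libraries in both tagged lines. The share over all genes was 8.54%, from which nothing is read since the 61 were chosen as lower in CNOT1-AID. The median log2 difference of the 61 from CNOT4-AID was 0. Genes at 0 counts in both tagged lines, such as ZNF570 and ZFP28, enter that median at log2 0 without a measured ratio. It therefore does not show equal levels in the tagged lines. For 16 of the 61, CNOT1-AID libraries lay below both CNOT4-AID libraries too (11% of all genes lay below both other lines, again no measure of chance). ZNF714 (15.27 and 10.27 CPM in CNOT4-AID libraries, 0 and 0.05303 CPM in CNOT1-AID libraries) and ZNF431 were among these. ZNF431 stood at 51.26 and 82.62 CPM in parental, 0.05029 CPM and 0 in CNOT1-AID and 7.437 and 5.485 CPM in CNOT4-AID libraries.

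**Figure D4:**
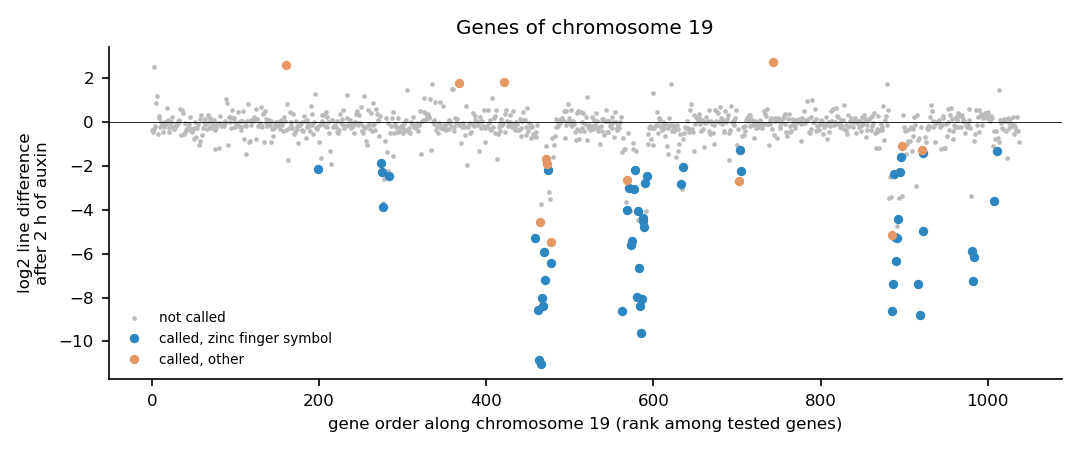
Line difference after 2 h of auxin (log2, genes at 0 counts in 1 group at their bound) for the 1038 tested genes of chromosome 19 in gene order. Lower zinc finger genes (blue) stand in separate clusters, with most genes between them near 0.

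Outside the zinc finger genes, B2M, the light chain of MHC class I, was read at 44.52 and 69.69 CPM in parental, 15.74 and 14.11 CPM in CNOT1-AID and 55.34 and 49.26 CPM in CNOT4-AID libraries (log2 -1.94, adjusted p 0.01754). It was lower untreated by a similar size (log2 -1.48). B2M was the 1 gene called of 29 on the interferon and MHC class I list. The histone gene HIST1H2BE (log2 -2.21, untreated -1.63) and keratin KRT20 (log2 -1.45, untreated -1.08) likewise lay below both other lines in both CNOT1-AID libraries. NANOS1, an RNA-binding protein that recruits CCR4-NOT to mRNAs, stood at 93.26 and 73.68 CPM in parental, 32.99 and 31.24 CPM in CNOT1-AID and 51.38 and 52.33 CPM in CNOT4-AID cells (log2 -1.38, adjusted p 0.017). Its untreated difference was log2 -0.01, and after 8 h of auxin it had fallen by 3.07 on the log2 scale in CNOT1-AID cells, to 2.11 and 1.54 TPM from 15.76 and 16.27 TPM. Among the other lower genes with a small untreated difference were DNHD1 (log2 -1.18) and DSE (log2 -0.97). Pseudogene copies such as RPL13AP5 (log2 -1.52) were there too, and their reads may come from their parent genes. Without CNOT1-AID replicate 1 or 2 the adjusted p was 0.108 and 0.144 for B2M, 0.145 and 0.207 for KRT20 and 0.177 and 0.228 for NANOS1, and DNHD1, DSE and RPL13AP5 were not called either; HIST1H2BE was not called without replicate 1 (0.063). The list of adaptors and recruiters of deadenylation had 1 higher (BTG2) and 1 lower gene (NANOS1) of 22.

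How quickly an mRNA is lost went along with its 2 h difference. Loss was taken from CNOT4-AID libraries, as the log2 change over 3 h of 1 uM triptolide, for 10277 protein-coding genes at 5 CPM or more. These cells had also been given 1 mM auxin, so the loss is not that of untreated cells. The 318 genes that lost over 4-fold (log2 below -2) had a median 2 h line difference of 0.43, and 9.748% of them were called higher. The median was 0.23 for losses of log2 -2 to -1, 0.14 for -1 to -0.5, 0.05 for -0.5 to 0, and -0.05 and -0.06 for genes that held or gained relative level. Untreated medians in the same bins ran from -0.06 to 0.02. Of the 41 higher genes with a small untreated difference in this set, 63.41% had a loss below -1, against 9.186% of all genes. The share was 38.24% of 34 genes higher in both comparisons and 30.36% of 56 lower genes. NFKBIA (log2 -4.71), DUSP1 (-4.50), EGR1 (-3.30) and HBEGF (-2.94) were among the higher genes with a small untreated difference. NFIA (0.32) and LGALS3BP (0.14), higher in both comparisons, did not decline on this scale, which is relative to the other mRNAs. Genes are not replicates and the bins carry no test.

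**Figure D5:**
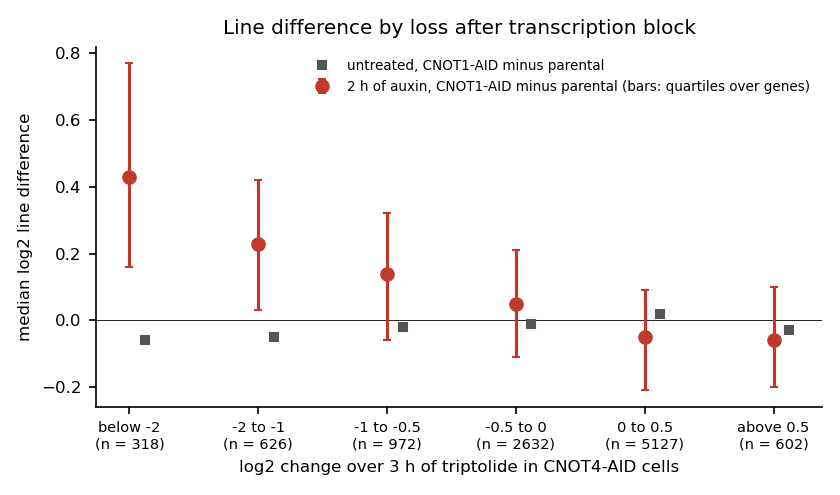
Median line difference (log2) of protein-coding genes in 6 bins of their change over 3 h of triptolide in CNOT4-AID cells, after 2 h of auxin (circles, bars are quartiles over genes) and untreated (squares). The 2 h median falls from 0.43 in the fastest-lost bin to -0.06, and the untreated medians stay near 0.

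By 8 h of auxin, 9374 of 14921 genes (62.8%) had changed in CNOT1-AID cells (4933 higher, 33.1%, and 4441 lower, 29.8%; without scaling 6624 and 2251, with ERCC scaling 7780 and 1470), against 3 genes (0.0201%) in parental cells. Of the 37 genes higher at 2 h whose untreated difference was small at 24 h (libraries the 8 h response does not use), 24 had risen at 8 h and 5 had fallen, with a median of log2 0.95 against 0.01 for all genes. FOSB rose from 0.35 and 0.80 TPM untreated to 12.1 and 11.54 TPM (log2 3.29). TRIB1 (log2 3.13), NFKBIA (log2 2.58), GDF15 (log2 2.28), BTG2 (log2 2.20), DUSP1 (log2 1.60) and HBEGF (log2 1.01) were also higher. FOS fell by 0.60, IER3 fell by 1.18 and ID1 fell by 2.14 on the log2 scale, and JUN (log2 -0.06, adjusted p 0.6345) was not called. Of the 56 lower zinc finger genes tested at 8 h, 27 rose and 1 fell, with a median of 0.29. On the whole zinc finger list 300 of 371 rose and 11 fell, with a median of 1.03. A rise was thus not particular to the lower genes. ZNF540 rose to 1.21 and 0.75 TPM from 0.08 and 0.25 TPM, under the 19.27 and 16.96 TPM of parental cells with auxin.

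A few small structured RNAs were called. Small nuclear RNA loci had a median log2 difference of 0.79, with 6 higher and 0 lower of 52, and snoRNA and scaRNA loci a median of 0.79, with 4 higher of 102. Small nuclear RNAs took 1.745% and 1.656% of counts in CNOT1-AID libraries, 1.105% and 0.9419% in parental and 0.9104% and 1.032% in CNOT4-AID libraries. Of the 6, 4 U1 loci had identical counts in all 6 libraries, so they are copies of 1 measurement (RNU1-4 stood at 58.86 and 112.7 CPM in parental and 885.8 and 579.1 CPM in CNOT1-AID libraries). RNU1-4 was not called without CNOT1-AID replicate 1 (adjusted p 0.0514) or with the GC offset (0.0609). Untreated, 0 small nuclear RNA loci were higher and 1 lower of 72 (median 0), and 1 snoRNA or scaRNA locus was higher and 6 lower of 182 (median 0.01).

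Other lists held few calls at 2 h, when 1.36% of all genes were called. In lists this short, 0 calls are near that share and set no list apart. Of 81 cytosolic ribosomal protein genes, 37 proteasome genes, 31 genes of the G1/S cell cycle list and 28 decay enzymes other than CCR4-NOT, 0 were called in edgeR, with medians of -0.07, -0.01, -0.05 and 0.01. At an unadjusted p under 0.05 there were 10, 1, 3 and 3, and DESeq2 called 1, 0, 0 and 0. With the GC offset, 1 higher and 10 lower ribosomal protein genes passed, 0 and 1 proteasome genes, 1 and 7 G1/S genes, and 1 and 6 decay enzymes. Over all genes 6.55% were higher and 6.36% lower with that offset. Of 23 p53-linked genes 2 were higher, GDF15 among them, with a median of 0.19. Wnt targets had a median of 0.49 with 0 of 18 called in edgeR (11 at an unadjusted p under 0.05), 3 in DESeq2, and 13 higher and 1 lower with the GC offset; 8 of 17 were higher untreated.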

How the data were processed

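The deposited triptolide table holds raw counts per gene, and the deposited steady-state table holds TPM to 2 decimals, so its depth is unknown. Per the submitters' processing notes, the tools were featureCounts, STAR 2.5.1b, SAMtools, RSEM and DESeq2 and the build hg38, with no table assigned to a tool. Per the labels' protocols, ribosomal RNA was removed from total RNA with ERCC spike-ins added. Symbols and positions came from GENCODE 29 (GRCh38), for all 58721 identifiers.

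Counts of the 6 libraries without triptolide were fitted with edgeR 4.0.16 (TMM scaling, filterByExpr, robust quasi-likelihood, 3 residual degrees of freedom). The 24 steady-state libraries were fitted with limma 3.58.1 (trend, robust) on log2 of TMM-scaled TPM plus 0.5, for genes at 1 TPM or more in 2 libraries (12 residual degrees of freedom). Printed TPM are as deposited, before scaling. Adjusted p-values are Benjamini-Hochberg over all genes, threshold 0.05. No source says that replicates came from separate cultures, so p-values measure the spread between these libraries. Exact permutation of 2 against 2 cannot go below p = 0.333. A group at 0 counts was set to a floor of 3 counts, for counting error only. Both fits were run on simulated data with changed genes, of which 89% at 2-fold and 100% at 3-fold were recovered in the 2 h comparison (15346 genes). The simulated libraries shared a single level of spread with no link to GC content, unlike the parental pair (SD 0.5758, r = 0.818 with GC). These shares therefore check the procedure and do not measure power in the real comparison.

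Named genes were the 10 largest rises and falls with a mean of at least 5 CPM and groups that did not overlap, the same within genes with a small untreated difference, 5 each way shared with the untreated comparison, 5 of opposite sign, all CCR4-NOT subunits and up to 3 called members per list. Members of the immediate early list, STAT5A and the other genes higher in CNOT4-AID too were named after their values were seen. Clone names and small RNA symbols were passed over by that rule. Members, lists and tests were chosen with earlier results of these data known. Alternatives were DESeq2 1.42.0, other scalings and filters, other sets of libraries, a replicate block, each library left out and, added after seeing the data, a GC offset. Newly made RNA was not analysed here.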

Additional observations from a re-analysis of the deposited data

Results flagged for a closer look

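A change of the untreated line difference from 8 h to 24 h of culture was called for 1 of 14921 genes. In limma 621 had an unadjusted p under 0.05, and the lack of a call does not show that a difference stayed the same. For the pseudogene FCF1P2 the difference at 24 h exceeded that at 8 h by log2 1.93 (limma, adjusted p 0.02023). CNOT1-AID minus parental was -1.38 at 8 h and 0.55 at 24 h. Its levels were low, at 1.83 and 1.13 TPM in parental and 0.2 and 0.29 TPM in CNOT1-AID libraries at 8 h, and 1.03 and 0.85 against 1.57 and 1.59 TPM at 24 h. FCF1P2 enters no result on the 2 h difference.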

How the results depend on the processing

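The number of genes called after 2 h (213) was 494 with DESeq2, 703 with ERCC scaling (612 higher and 91 lower, the median over genes shifting by 0.36), 856 with no filter on low counts, 98 with at least 1 CPM in all 4 libraries, 2436 with all 24 triptolide libraries, 65 with only the 4 libraries compared and 2023 with the GC offset; leaving out 1 library gave 48 to 2750. In the same order, genes with a small untreated difference (62) were 225, 457, 321, 36, 1723, 10 and 1445, with 9 to 2205 on leaving out 1 library, and 29 and 103 under bounds of log2 0.32 and 1. Genes called in both comparisons in the same direction (135) were 241, 246, 323, 64, 713, 49 and 679, with 36 to 588. Those of opposite direction (5) were 18, 36, 25, 2, 113, 0 and 100, with 0 to 204, and 2 and 3 against untreated libraries at 8 h or 24 h alone. CNOT1-AID against CNOT4-AID (165 genes) gave 527 with DESeq2, 930 with no filter, 82 with at least 1 CPM, 2338 with all 24 libraries, 1760 with only its 4 libraries, 2268 with the GC offset and 0 to 0 in edgeR on leaving out any 1 library of the CNOT1-AID and CNOT4-AID lines (936 to 1280 at an unadjusted p under 0.05). The causes were not tested. A lone library is there assumed to vary like the other groups.

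Untreated differences (3095 genes) were 1719 without scaling (629 higher and 1090 lower), 1312 with ERCC scaling (451 and 861) and 1529 from untreated libraries alone, with 2225 to 3859 on leaving out 1 library. The 8 h response (9374) kept 8374 to 8904. Auxin in parental cells (3) gave 18 with no filter, 1 with ERCC scaling and 0 to 1 on leaving out 1 library. The change of the untreated difference with time (1) gave 19 with no filter, 0 with at least 5 TPM, 0 without scaling, 8 from untreated libraries alone and 0 to 2 on leaving out 1; at an unadjusted p under 0.05, limma gave 379 and 342 for the 2 settings at 0. DESeq2 was not run on TPM.

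Replicate numbers did not pair the samples (correlations of replicate differences at 2 h were -0.2639, -0.4885 and 0.1825). With a replicate block the counts at 2 h were 106, 23, 76 and 0 in the order above, and 25 against CNOT4-AID. EGR1, FOSB, FOS, DUSP1, HBEGF, ID1, IER3, NFIA, LGALS3BP and ZFP30 kept their 2 h call in all 14 alternatives run, and no named gene that was called changed sign. Over all named genes and alternatives, the 2 h call was lost in 174 cases and gained in 33; of the losses, 82 were on leaving out a CNOT1-AID library, 39 with only the 4 libraries compared and 28 with the replicate block.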
